A study of Caenorhabditis elegans with 4 samples.

Results

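The glutathione S-transferase (GST) genes of Caenorhabditis elegans were taken as every protein-coding gene of the count table whose WormBase symbol begins with gst-, gsto- or gstk-, which gave 49 genes of 46643 rows. The study asked which genes respond when wild-type (N2) worms grow on ketamine, an anesthetic. RNA of whole worms was sequenced at adult day 1 after growth from synchronised L1 larvae at 25 °C, on bacteria-seeded plates with 2.5 mM ketamine (2 libraries) or with M9 buffer, the vehicle (2 libraries, 0 mM). Both groups shared genotype, food and temperature, and the labels do not say whether the libraries came from separate cultures, so p-values measure the spread between these libraries only. The counts summed to between 29.19 and 43.42 M per library.

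GST enzymes join the tripeptide glutathione to electrophilic compounds and to products of lipid oxidation, which makes them more soluble and easier to export. In worms most GST genes belong to a nematode-expanded group related to the sigma class, and a few belong to the pi, zeta, omega and kappa classes known from mammals. Many are expressed in the intestine and epidermis. The transcription factor SKN-1, the worm relative of mammalian Nrf, drives several of them under oxidative stress, and gst-4 is the usual reporter of its activity.

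Among single members, gst-37, gst-32, gst-31, gst-5, gsto-2, gst-33, gst-6 and gst-44 were each at least 2-fold higher under ketamine, from 2.21-fold for gst-44 to 7.24-fold for gst-32, with gst-37 far beyond this range from a base near 0. These 8 genes made up 18.2% of the 44 GST genes tested, where 4.39% of all tested genes were as much higher. Among the 8, gst-37 and gsto-2 had enough counts for the test in the ketamine libraries alone, so being tested already required a difference. gst-9 alone was at least 2-fold lower (2.27%, against 3.56% of all tested genes). The most abundant members, gst-1 and gst-7, differed by less than the spread of their controls.

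The test was edgeR's quasi-likelihood test on the counts, over the 15793 genes that reached 10 counts in 2 libraries or more. Calls required a Benjamini-Hochberg adjusted p-value below 0.05 together with a change of 2-fold or more. Of the GST genes 44 entered this test, and edgeR called 0 of them higher and 0 lower, where 0.095% of all tested genes were called higher and 0% lower. The lowest adjusted p-values in edgeR were 0.137 for gst-37 and 0.182 for gst-5. With the p-value left unadjusted (below 0.05, 2-fold or more), 8 of the 44 GST genes were higher in edgeR (18.2%) against 2.01% of all tested genes, and 0 were lower against 1.6%. With no limit on the fold, gst-39 joined the higher genes (9 of 44, 20.5%, against 2.65%), and gst-26, gst-28 and gst-36 were lower (3 of 44, 6.82%, against 3.29%). gst-37 and gsto-2 passed the count filter through the ketamine libraries alone, so their place among the tested genes already required a difference.

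DESeq2, the tool of the study, gave an adjusted p-value for 47 GST genes, all but gst-8 and gst-34. By the same rule it called 5 of them higher, namely gst-5, gst-6, gst-31, gst-32 and gst-37 (10.6%, against 0.649% of all genes with an adjusted p-value), and 0 lower, against 0.145%. With its p-value left unadjusted, 8 of the 49 were higher (16.3%, against 1.68% of all genes) and gst-9 was lower (2.04%, against 1.13%). The calls thus differed between edgeR and DESeq2, and the word "rose" marks genes that DESeq2 called.

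**Figure D1:**
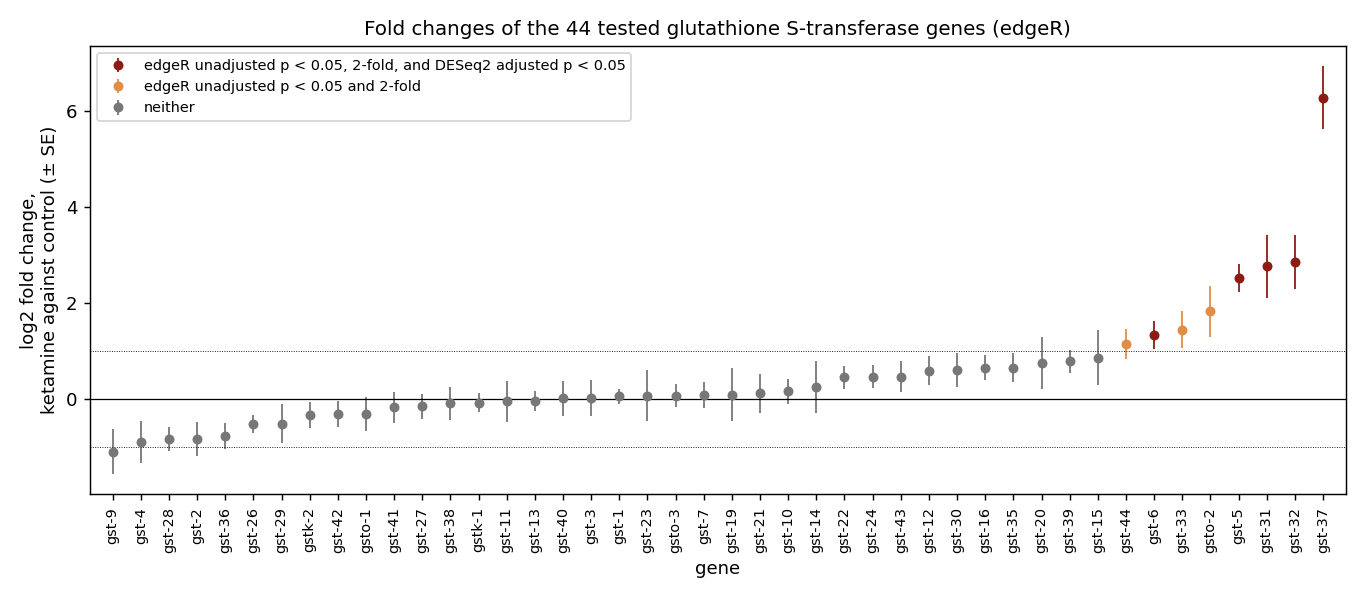
Log2 fold change of each of the 44 tested GST genes, ketamine against control, with its standard error from edgeR (n = 2 libraries a group); dotted lines mark 2-fold. Dark red marks genes that DESeq2 called and orange those it did not call but that passed an unadjusted p-value of 0.05 and 2-fold in edgeR, and the 8 coloured genes at the right reach from 1.14 for gst-44 to 6.28 for gst-37, and gst-9 at the left is the sole gene below -1.

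gst-5 (R03D7.6, chromosome II, 10950350 to 10951604 of WBcel235, plus strand, 2 exons) was the single member that was both abundant and strongly changed. It was at 33.1 and 24.4 CPM (counts per M counts of the library, scaled by edgeR's TMM factors) in the controls and at 130.2 and 199.6 CPM under ketamine. Both ketamine libraries lay well above both controls, and ketamine 2 was the higher. gst-5 rose 5.73-fold, or 2.52 ± 0.29 (standard error) on the log2 scale (adjusted p = 6.11e-10 in DESeq2 and 0.182 in edgeR). Its neighbour on the opposite strand, nos-1, a germline RNA regulator, shares 12 exon bases with it and had a log2 fold change of 0.21.

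On the scale of FPKM, which divides counts by gene length and so allows genes to be set side by side, gst-5 had rank 10 of the 49 GST genes by mean control level. It stood at rank 3 in ketamine 1 and rank 2 in ketamine 2. Its part of the summed FPKM of the family was 2.91% in control 1 and 2.72% in control 2, against 12.2% and 16.8% under ketamine. The summed CPM of all 49 genes was 797.7 ± 133.3 (SD, n = 2) without ketamine and 910.6 ± 77.5 (SD, n = 2) with it, and the groups overlapped. Without gst-5 the sums were 768.9 ± 127.2 and 745.6 ± 28.4 CPM (SD, n = 2). No test was made on these sums.

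gst-37 (Y32G9A.1, chromosome V, 1921621 to 1922381, plus strand, 2 exons) had the largest fold change of the family and the lowest control level. It had 1 count in each control library, 54 in ketamine 1 and 81 in ketamine 2. The transcript was thus close to undetected without the drug and present in both treated libraries. The ratio of its summed, size-scaled counts was 87.0 with an exact 95% interval from 23.6 to 725, which covers counting error only. gst-37 rose by DESeq2's test (adjusted p = 2.51e-05), and its adjusted p in edgeR was 0.137. Even so it reached only rank 29 of the 49 genes by FPKM in ketamine 1 and rank 27 in ketamine 2, at 2.49 and 4.40 FPKM.

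gst-31 (Y53F4B.35, chromosome II, 15174271 to 15174965) and gst-32 (Y53F4B.37, chromosome II, 15177372 to 15178594) lie next to each other on the minus strand and were alike in level and in change. Control 1 had 11 counts of gst-31 and control 2 had 18, while ketamine 1 had 51 and ketamine 2 had 104. gst-32 was counted 14 and 12 times in controls and 49 and 95 times on ketamine. In both genes the groups did not overlap, and ketamine 2 exceeded ketamine 1 by more than 2-fold on the CPM scale. gst-31 rose 6.82-fold (log2 fold change 2.77, standard error 0.65; adjusted p = 0.0172 in DESeq2 and 0.754 in edgeR). gst-32 rose 7.24-fold (log2 fold change 2.86, standard error 0.56; adjusted p = 0.00555 in DESeq2 and 0.648 in edgeR). With ketamine 1 as the lone treated library, gst-31 stood at 2.004 and gst-32 at 2.15 on the log2 scale. How reads that match several genes were counted is not given in the sources used here, and the likeness of the sequences of these neighbours was not analysed here.

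gst-6 (F11G11.3, chromosome II, 4879885 to 4881110) had the closest ketamine libraries of the 5 genes that DESeq2 called. It was at 4.49 and 6.89 CPM in the controls and at 14.7 and 14.1 CPM under ketamine, so that the ketamine libraries differed less from each other than the controls did. gst-6 rose 2.53-fold (log2 fold change 1.34, standard error 0.30; adjusted p = 0.0356 in DESeq2 and 0.748 in edgeR). The study's annotation places gst-5, gst-6, gst-31, gst-32, gst-33 and gst-37 all among the relatives of human alpha class transferases and of HPGDS, the prostaglandin D synthase of blood cells. The share of the other GST genes with this annotation was not counted, so whether it is particular to these genes is not known.

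gst-33, gst-44 and gsto-2 were higher without an adjusted call in either tool. gst-33 (C02A12.1, chromosome V) was at 1.13 and 0.686 CPM in the controls and at 2.61 and 2.35 CPM under ketamine (log2 fold change 1.44, standard error 0.39). gst-44 (F13A7.10, chromosome V) had 69 and 62 counts without the drug and 107 and 118 with it, a log2 fold change of 1.14 (standard error 0.31). gsto-2 (C02D5.3, chromosome III) was a sparse transcript, counted 7 and 8 times in controls and 19 and 23 times on ketamine, and its log2 fold change was 1.83 (standard error 0.53). The groups did not overlap in any of these genes, and the adjusted p-value was 0.754 for each of them in edgeR.

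gst-44 and gsto-2 belong to the omega class, whose members act on small thiols and on dehydroascorbate rather than as typical conjugating enzymes. The other omega genes did not share the difference. gsto-1, an intestinal enzyme that protects worms from oxidative stress, was at 7.77 and 6.12 CPM in the controls and at 7.05 and 4.16 CPM under ketamine (log2 fold change -0.31, standard error 0.35). gsto-3 was at 8.77 and 10.6 CPM in the controls and at 10.45 and 9.94 CPM under ketamine (log2 fold change 0.07, standard error 0.24). In the controls gsto-3 and gsto-1 were the more abundant pair of the class, at 9.21 and 5.76 FPKM, against 1.81 FPKM for gst-44 and 0.202 FPKM for gsto-2.

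**Figure D2:**
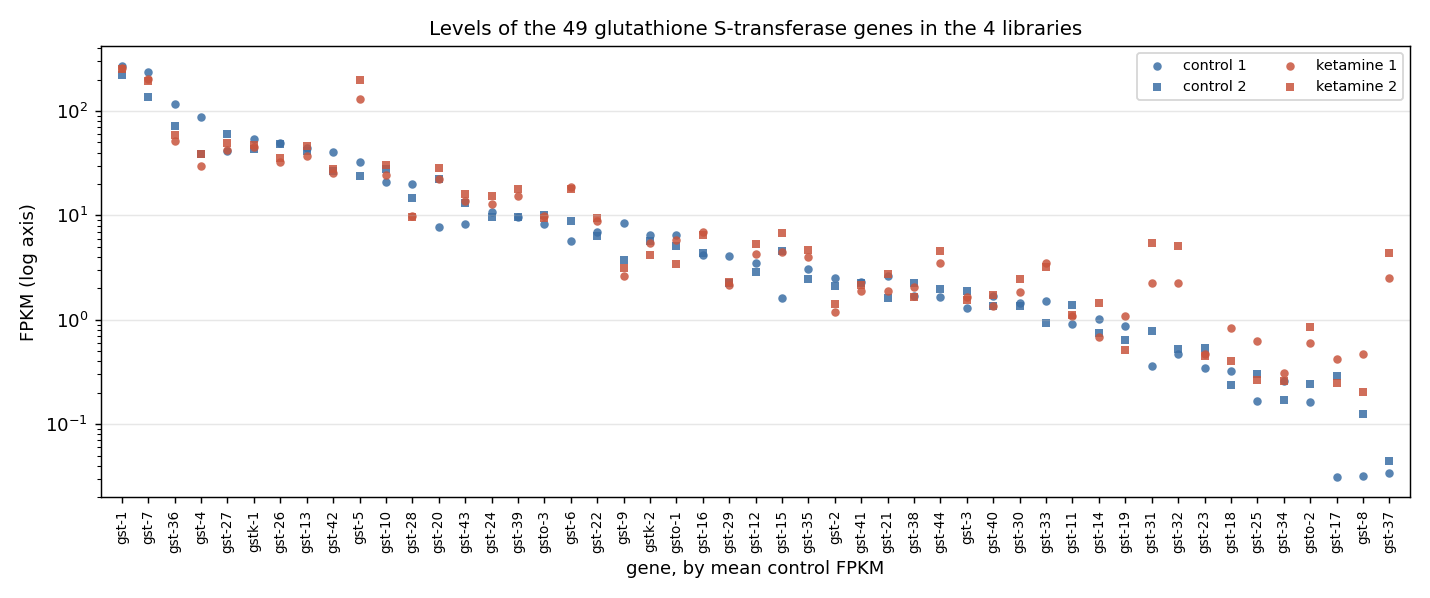
FPKM of each of the 49 GST genes in the 4 libraries, on a log axis, with genes ordered by mean control FPKM (blue, controls; red, ketamine; circles, library 1 of a group; squares, library 2). gst-1 and gst-7 lead in the controls at means of 244 and 185 FPKM, and gst-5, gst-31, gst-32 and gst-37 are the genes whose red points stand furthest above the blue ones.

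The control levels of the family spanned from 0.0394 FPKM for gst-37 to 244 FPKM for gst-1, with a median of 3.18 FPKM. Of the 49 genes 27 lay under 5 FPKM in the controls, 12 of them under 1 FPKM, while 11 lay at 5 to 20 FPKM and 11 at 20 FPKM or more. The pair gst-1 and gst-7 alone made up 44.5% of the summed FPKM in control 1 and 40.3% in control 2. Of the 22 tested genes under 5 FPKM, 6 were among the 8 higher genes, against 1 of 11 at 5 to 20 FPKM (gst-6) and 1 of 11 at 20 FPKM or more (gst-5). The median log2 fold change was 0.43, 0.45 and -0.07 in these bands in turn. Control levels enter both the band and the fold change, so this order is a description. In the lowest band gst-37 and gsto-2 also passed the count filter through the ketamine libraries alone, so their place there already required a difference.

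Among the abundant members, gst-1 (R107.7), a relative of the mammalian pi class, was at 221.9 and 184.0 CPM in the controls and at 212.8 and 208.3 CPM under ketamine. gst-7 (F11G11.2) was at 174.8 and 102.2 CPM in the controls and at 149.8 and 143.7 CPM under ketamine. In both the ketamine libraries fell between the controls, with log2 fold changes of 0.05 (standard error 0.16) and 0.08 (standard error 0.28). gst-10, the other well-studied pi class member, which conjugates the lipid oxidation product 4-hydroxynonenal, was at 16.4 and 22.2 CPM in the controls and at 19.3 and 23.8 CPM under ketamine. The zeta class enzyme gst-42, a maleylacetoacetate isomerase of tyrosine breakdown, was at 39.4 and 25.9 CPM in the controls and at 25.1 and 27.3 CPM under ketamine (log2 fold change -0.32, standard error 0.27). The kappa class genes gstk-1 and gstk-2, whose mammalian counterpart is found in mitochondria and peroxisomes, had log2 fold changes of -0.07 (standard error 0.21) and -0.34 (standard error 0.28). None of these 6 genes was called in either tool, and gstk-2 alone had both ketamine libraries below both controls.

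The lower values of the family lay with gst-9, gst-4, gst-28, gst-2, gst-36 and gst-26, and none of these passed adjustment in edgeR or DESeq2. gst-4 (K08F4.7, chromosome IV, 10142162 to 10143101), the SKN-1 reporter gene, was at 71.0 and 31.1 CPM in the controls, in order of their numbers, and at 23.96 and 31.2 CPM under ketamine. Control 1 stood apart from the other 3 libraries, which were alike. Its fold change was -0.89 ± 0.43 (standard error) on the log2 scale (adjusted p = 0.754 in edgeR), and -0.20 without control 1. gst-4 was therefore not higher under ketamine in any library than in both controls.

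gst-9 (R05F9.5, chromosome II, 4891580 to 4893574) was also highest in control 1, and both ketamine libraries lay below both controls. It was at 6.18 and 2.74 CPM in the controls and at 1.91 and 2.29 CPM under ketamine, or -1.09 ± 0.47 (standard error) on the log2 scale (adjusted p = 0.754 in edgeR), which was -0.42 without control 1. gst-9 overlaps msp-33, a major sperm protein gene on the opposite strand, with 0 shared exon bases, and msp-33 had a log2 fold change of -0.95. The sperm markers msp-31 and msp-40 were also lower, at -0.996 and -1.07, and spe-11 was at 0.25. Their part in the gst-9 value was not tested.

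gst-36, gst-28 and gst-26 were lower in both ketamine libraries than in both controls. gst-36 (R07B1.4, chromosome X) was at 87.5 and 54.5 CPM in the controls and at 38.6 and 44.6 CPM under ketamine (log2 fold change -0.77, standard error 0.28). It shares 93 exon bases with scav-5 on the opposite strand, which was at 0.25 on the log2 scale. gst-28 was at 14.5 and 10.8 CPM in the controls and at 7.19 and 7.06 CPM under ketamine (log2 fold change -0.83, standard error 0.26). gst-26 was at 36.5 and 35.4 CPM in the controls and at 23.9 and 26.04 CPM under ketamine (log2 fold change -0.53, standard error 0.19), the narrowest spread of the lower members. gst-27 (Y53F4B.30), a neighbour of gst-26 and gst-28 on chromosome II and among the 5 most abundant members in the controls, was at 30.96 and 45.4 CPM in the controls and at 31.6 and 37.1 CPM under ketamine, so the groups overlapped (log2 fold change -0.15, standard error 0.26). Without control 1 the values were -0.42 for gst-36, -0.63 for gst-28 and -0.53 for gst-26.

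gst-22, gst-30 and gst-43 were higher in both ketamine libraries than in both controls, at log2 fold changes of 0.45, 0.61 and 0.47, and gst-41 was lower in both at -0.17. gst-11, gst-13, gst-21, gst-23, gst-38 and gst-40 overlapped between groups, with log2 fold changes from -0.09 to 0.12. gst-43 was at 5.71 and 9.06 CPM in the controls and at 9.40 and 11.01 CPM under ketamine.

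**Figure D3:**
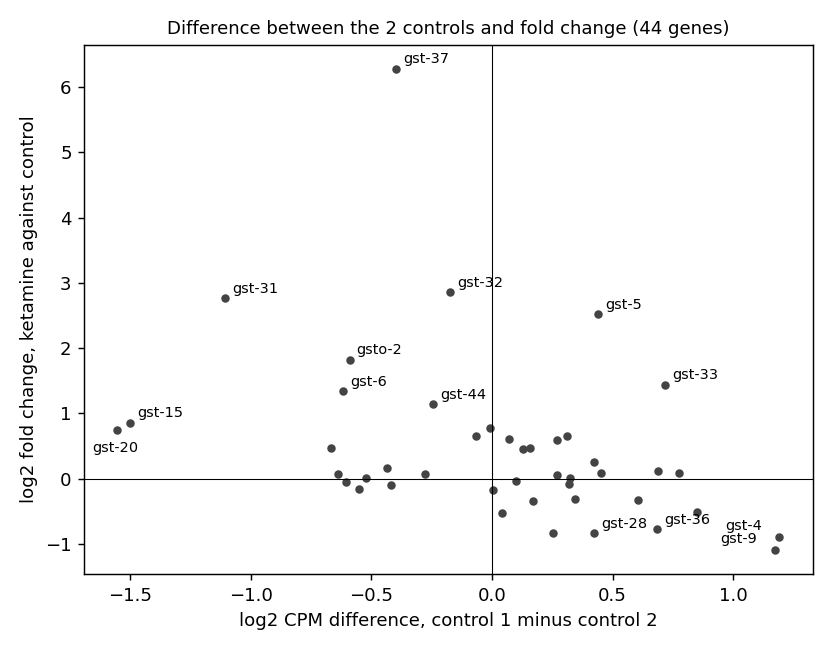
For each of the 44 tested GST genes, the log2 CPM of control 1 minus that of control 2 (x axis) against the log2 fold change, ketamine against control (y axis). gst-4 and gst-9 lie at the lower right, where control 1 is more than 2-fold above control 2, and gst-15 and gst-20 at the left, where it is more than 2-fold below. Both axes use the controls.

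The controls differed from each other more than the ketamine libraries did. Over the 44 tested GST genes the median absolute log2 difference was 0.42 between the controls and 0.25 between the ketamine libraries, and over the 15731 tested genes with counts in every library these medians were 0.46 and 0.14. The controls were more than 2-fold apart in 5 GST genes, namely gst-4, gst-9, gst-15, gst-20 and gst-31, and the ketamine libraries in 4, namely gst-14, gst-19, gst-31 and gst-32. gst-20 was at 5.75 and 16.9 CPM in control 1 and control 2 and at 16.6 and 21.2 CPM under ketamine, and gst-15 was at 1.17 and 3.31 CPM and at 3.23 and 4.88 CPM. In both genes control 1 was the low library, and their log2 fold changes of 0.75 and 0.86 were 0.14 and 0.26 without it. Across the family 16 of 44 tested genes (36.4%) had both ketamine libraries above both controls, against 23.1% of all tested genes, and 7 (15.9%) had both below, against 20.6%. The median log2 fold change was 0.09 over the GST genes and -0.0051 over all tested genes, and 28 of the 44 lay above 0 (63.6%, against 49.5% of all tested genes).

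GST genes lie close together in the worm genome, with 26 of the 49 on chromosome II, and 25 formed 4 groups in which the next GST gene was within 10 kb. In a run of 9 genes over 21.6 kb of chromosome II (15163808 to 15185385), the sign of the difference changed along the run. gst-26, gst-27, gst-28 and gst-29, the first 4 in order, had log2 fold changes of -0.53, -0.15, -0.83 and -0.51. The groups overlapped in gst-27 and gst-29. gst-27 was at 0.15 without control 2, and gst-29 was at -0.05 without control 1. The next 3, gst-39, gst-31 and gst-32, were at 0.78, 2.77 and 2.86, and gst-35 at the far end was at 0.66. gst-39 was at 6.94 and 6.97 CPM in the controls and at 11.1 and 12.9 CPM under ketamine (standard error 0.23), and its adjusted p-value was 0.754 in edgeR and 0.540 in DESeq2. The single other protein-coding gene inside the run, Y53F4B.36, was at -0.74 with 6 to 28 counts.

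The other run of 9 genes, over 22.7 kb of chromosome II (13608185 to 13630887), showed smaller values. All 7 of its tested genes had log2 fold changes above 0, where 49.5% of all tested genes did, from 0.09 for gst-19 to 0.86 for gst-15, with a median of 0.59, and none was called. With a library left out, gst-19 was at -0.55 without ketamine 1 and -0.10 without control 2, and gst-14 at -0.37 without ketamine 2. Within it gst-12, gst-16 and gst-24 had both ketamine libraries above both controls, at log2 fold changes of 0.59, 0.65 and 0.47. In the group of gst-6, gst-7, gst-8 and gst-9 (chromosome II, 4879885 to 4893574) the 3 tested neighbours had log2 fold changes of 1.34 (gst-6), 0.08 (gst-7) and -1.09 (gst-9), with the untested gst-8 and 3 other protein-coding genes also inside the group. The value of gst-7 ran from -0.25 to 0.49 with a library left out. In the chromosome IV group gst-3, gst-2 and gst-4 were at 0.02, -0.83 and -0.89. gst-2 was at 1.67 and 1.40 CPM in the controls and at 0.793 and 0.935 CPM under ketamine.

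**Figure D4:**
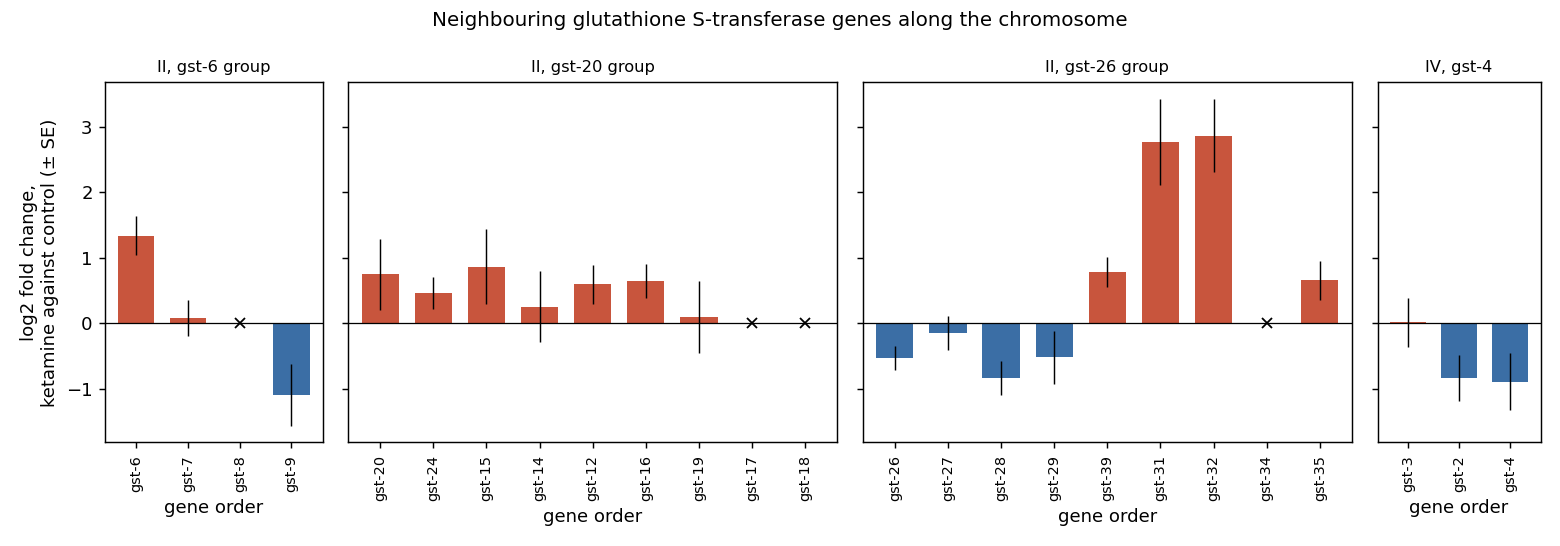
Log2 fold change, ketamine against control, with its standard error from edgeR, for the 25 GST genes in 4 chromosomal groups, in order along the chromosome (red, above 0; blue, below 0; crosses, genes not tested for low counts). In the group that begins with gst-26, the first 4 genes lie between -0.83 and -0.15 and gst-39, gst-31 and gst-32 between 0.78 and 2.86.

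The 5 genes that were not tested had 1 to 17 counts in every library. gst-8 was counted 1 and 3 times in controls and 11 and 4 times on ketamine, and gst-18 had 9 and 5 against 17 and 7. gst-17, gst-25 and gst-34 overlapped between groups. All 5 fell below the count filter, and edgeR without that filter called none of them. DESeq2 called none either, but it gave no adjusted p-value for gst-8 and gst-34. On the CPM scale gst-8 and gst-18 were higher in both ketamine libraries than in both controls. Their ratios of summed, size-scaled counts were 4.83 and 2.21, with exact 95% intervals that began at 1.54 and 1.10. These intervals cover counting error only, and those of gst-17, gst-25 and gst-34 included 1. At such low counts the lack of a call does not show that a difference was absent.

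Genes that supply, recycle and export glutathione were compared in the same fit. Of 31 listed genes of glutathione synthesis, recycling and peroxidases, conjugate export and SKN-1 regulation, all were tested, 0 were called higher or lower by edgeR or DESeq2, and 0 reached 2-fold with an unadjusted p-value below 0.05 in edgeR. Over all tested genes these shares were 0.095% higher and 0% lower in edgeR, 0.649% and 0.145% in DESeq2, and 2.01% and 1.6% unadjusted, so a count of 0 among 31 genes lay near the background. Their median log2 fold change was -0.11, with 8 of 31 above 0, and the values ran from -0.97 for the glutathione peroxidase gpx-3 to 0.62 for the glutaredoxin glrx-22. gcs-1, which encodes the rate-limiting enzyme of glutathione synthesis and is a SKN-1 target like gst-4, averaged 170.8 ± 34.5 CPM (SD, n = 2) without ketamine and 156.8 ± 2.35 CPM (SD, n = 2) with it (log2 fold change -0.12, standard error 0.19). skn-1 averaged 211.8 ± 7.27 CPM (SD, n = 2) without ketamine and 241.3 ± 0.614 CPM (SD, n = 2) with it (log2 fold change 0.19, standard error 0.13, adjusted p = 0.754 in edgeR). wdr-23, which encodes the adaptor that targets SKN-1 for destruction, was at -0.0076 on the log2 scale. The 8 mrp genes, transporters that can export glutathione conjugates, ran from -0.43 to 0.26.

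The yolk genes vit-2 and vit-6, the oocyte genes and col-19 were present in every library, as in adults. The summed intestine markers ran from 24561 to 51156 CPM in the controls and from 47848 to 49615 CPM under ketamine, and control 1 was the low library. Summed molting markers of larvae ran from 58.3 to 71.1 CPM in the controls and from 65.7 to 83.7 CPM under ketamine. The 5 molting markers had log2 fold changes of 1.54 (rol-6), 1.48 (dpy-7), 0.91 (mlt-10), 0.29 (noah-1) and -0.19 (nas-37), and without ketamine 1 those of rol-6 and dpy-7 were 0.75 and 0.85. The study lists rol-6 and dpy-7 among the cuticular collagens upregulated by ketamine in these same data, so they are not markers of stage alone. The groups overlapped in mlt-10 and noah-1, and nas-37 was lower in both ketamine libraries. The adult collagen col-19 ran from 309.4 to 1555 CPM in the controls and from 725.1 to 848.9 CPM under ketamine. The study describes slower, mixed-stage growth on ketamine, and stage and drug cannot be told apart in these libraries. In RNA from whole animals, fewer cells of a type and less RNA per cell cannot be told apart either. The part of stage in the GST values was not tested.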

How the data were processed

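HISAT2 2.0.5 (alignment, WBcel235), StringTie 1.3.3b (assembly) and featureCounts 1.5.0-p3 (counting) are the tools the authors name. They deposited raw counts per gene and FPKM values, and each FPKM equals the count over gene length and over 46.57 M (control 1), 35.47 M (control 2), 34.43 M (ketamine 1) or 29.24 M (ketamine 2). Strand and multi-mapping settings of the counting are not given in the sources used here. The counts summed to 43.42, 36.24, 34.53 and 29.19 M in the same order, and 2 libraries a group limit the precision. Columns headed WT were taken as the control libraries of the same number.

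Sequence names were matched to WormBase genes through the WBcel235 annotation (46180 of 46643 rows), and all 49 GST symbols were found. Coordinates are those of the deposited table, and exon numbers and shared exon bases those of the annotation. The coordinates were equal in 3 of the 49 GST genes, so shared bases of the counted gene models can differ. For gst-5 the annotation has 725 exon bases, and the deposited length is 999. edgeR 4.0.16 (R 4.3.3) fitted genes reaching 10 counts in 2 or more libraries, with TMM factors, robust dispersion and no block, and a standard error is the absolute log2 fold change over the root of its F statistic. DESeq2 1.42.0, limma 3.58.1 on log2 FPKM, other filters, RLE scaling, the replicate block and leaving out each library were alternatives. The fits were also run on simulated counts. The outcome is not given here, so it does not help to weigh the edgeR calls against those of DESeq2. Members and gene lists were chosen with earlier results of these data known. Genes given in full are those called by edgeR or DESeq2, those past an unadjusted p-value of 0.05 and 2-fold without overlap, the 5 with the highest control FPKM, the 3 with the lowest log2 fold change, gst-4, gcs-1 and skn-1, and the others were named after their values were seen.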

Additional observations from a re-analysis of the deposited data

How the results depend on the processing

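The number of GST genes called higher was 0 in edgeR and 5 in DESeq2, 2 without a count filter (gst-5 and gst-37) and 1 with the replicate block (gst-37), and it was 8 at an unadjusted p-value in edgeR and in DESeq2. It stayed at 0 with RLE scaling, at least 50 counts, protein-coding genes alone and limma. Called lower were 0, and 1 in DESeq2 at an unadjusted p-value. Leaving out each library gave 0 to 8 GST genes called higher and 0 to 4 lower, with both upper ends without control 2 (gst-4, gst-9, gst-28 and gst-36 lower), where the lone control is assumed to vary like the closely matched ketamine libraries. Without control 1 there were 2 called higher (gst-6 and gst-37) and without ketamine 1 there was 1 (gst-5).

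At an unadjusted p-value and at least 2-fold, the 8 higher GST genes became 5 in limma on log2(FPKM + 1), filtered or not, and 4 to 10 with a library left out, and the 0 lower became 1 in DESeq2 and without a filter and 0 to 4 with a library left out. Over all genes, 15 were called higher in edgeR, 107 in DESeq2, 58 without a filter, 31 with the replicate block, 8 in limma without a filter, and 317 (edgeR) and 380 (DESeq2) at an unadjusted p-value. Called lower were 0, 24 in DESeq2, 6 without a filter, and 252 and 256 at an unadjusted p-value. With a library left out, 13 to 1651 were higher and 0 to 656 lower. The median log2 fold change of the GST genes was 0.09, and 0.0646 to 0.25 with a library left out. The listed glutathione genes gave 0 to 1 calls in each direction.

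The labels do not say whether libraries of the same number were paired. The deviations of same-numbered libraries correlated at 0.06 across genes, which cannot exclude a pairing. With a library left out the sign turned in 16 of the 44 tested GST genes, gst-3, gst-11, gst-13, gst-14, gst-19, gst-21, gst-23, gst-38 and gst-40 among them, and of the genes given in full or named by class it turned for gst-1 (-0.0771 to 0.17), gst-7 (-0.25 to 0.49), gst-10 (-0.0695 to 0.39), gst-27 (-0.43 to 0.15), gstk-1 (-0.23 to 0.0664), gsto-1 (-0.74 to 0.0241), gsto-3 (-0.0880 to 0.22) and gcs-1 (-0.32 to 0.0701). The 8 higher members were above 0 in every setting that gave a value (gst-37 and gsto-2 fell below the count filter without either ketamine library), with the log2 fold change of gst-37 falling to 2.06 on the log2(FPKM + 1) scale, where the added 1 exceeds its control level.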
